A study of Mus musculus with 18 samples.

Results

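The 9 CpGs measured in the first intron of Prkcq were followed through 3 consecutive stages of mouse T-cell development. The members are 17 CpG cytosines (9 of the forward strand, 8 of the reverse), taken by their position on chromosome 2 from 64 CpG cytosines that were covered in all 18 libraries of the study. The stages were double positive (DP) thymocytes, CD4 single positive (SP) thymocytes and naïve CD4 T cells, all from female C57/BL6 mice of 4 to 6 weeks with no genetic change or treatment. DP cells (CD4+, CD8 int/hi) and CD4 SP cells (CD4+, CD3 hi, CD24 int/lo) were sorted from the thymus, and naïve CD4 cells (CD62L hi, CD25-, CD44 lo) from spleen and lymph nodes that had been pooled. Each DNA was divided, and one portion was oxidised with KRuO4 before bisulfite treatment. There were 3 libraries for each stage by bisulfite sequencing (BS) and 3 by oxidative bisulfite sequencing (oxBS). According to the methods of the study each stage was isolated from independent mice. A sorted stage is still a population, so a share is an average over cells and alleles. The files hold no expression values, so the stage labels could not be checked against marker genes.

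Prkcq encodes protein kinase C theta, which acts downstream of the T-cell receptor in the signalling that activates NF-κB. DP thymocytes carry both CD4 and CD8 and precede the CD4 SP cells, which leave the thymus and become naïve CD4 T cells. TET enzymes oxidise 5-methylcytosine (5mC) to 5-hydroxymethylcytosine (5hmC), and loss of both leaves unmodified cytosine. In BS both 5mC and 5hmC are read as C, whereas in oxBS only 5mC is. The share of reads left unconverted is therefore the total of both marks in BS and 5mC in oxBS, and BS minus oxBS is an estimate of 5hmC.

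The covered window is chr2:11124412-11124609 of mm9 (NCBIM37), 198 bases on the forward strand, which is also the strand of the gene. Prkcq (ENSMUSG00000026778.6) spans chr2:11093740-11222853. The window lies in intron 1 of 3 of its 4 annotated transcripts, 30324 bases after exon 1 and 23876 bases before exon 2, and overlaps no exon. The fourth transcript starts downstream of it. The whole window is shown because its layout recurs in the results, with the CpGs in capitals.

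Prkcq window: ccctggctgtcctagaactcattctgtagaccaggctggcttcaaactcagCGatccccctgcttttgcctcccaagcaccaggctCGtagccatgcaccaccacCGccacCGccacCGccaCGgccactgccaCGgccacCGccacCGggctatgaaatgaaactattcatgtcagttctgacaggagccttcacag

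The CpGs are numbered 1 to 9 from the lowest coordinate, at 11124463, 11124498, 11124517, 11124523, 11124529, 11124534, 11124546, 11124553 and 11124559 (the forward C, with the reverse cytosine 1 base higher). CpGs 2 to 9 lie within 61 bases, and CpGs 3 to 9 lie 5 to 12 bases from their neighbours in a stretch that repeats the letters ccacCG. The 5 CpGs described library by library below were chosen for the largest or smallest oxBS change, the highest BS minus oxBS in DP or the largest strand difference in DP oxBS, and are shown on the forward strand with 10 bases on each side.

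CpG 2: gcaccaggctCGtagccatgca
CpG 5: ccaccgccacCGccacggccac
CpG 6: gccaccgccaCGgccactgcca
CpG 7: gccactgccaCGgccaccgcca
CpG 9: ccaccgccacCGggctatgaaa

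CpGs 3, 4, 5 and 8 share the 6 letters ACCGCC, and CpGs 6 and 7 share CACGGC. The window has 9 CpGs and 59.6% G and C, against a median of 1 CpG and 41.9% in 900946 windows of that length tiled over chromosome 2, of which 1.29% hold at least 9 CpGs. Of 18 overlapping stretches of 20 bases, 14 occur once on chromosome 2, including every stretch that holds a CpG. The other 4, all before CpG 1, occur up to 245 times. None of the motifs searched on both strands was found, namely CACGTG (held by 1.98% of the tiled windows), CAGCTG (7.48%), the general form CANNTG that contains both (65.6%), TGTGGT (RUNX, 13.9%), AGATAA (for factors of the GATA family, 12.9%), CCGGAA (ETS, 1.52%) and TGACGT (part of a CRE site, 1.49%). This says only that these letters are not in the window.

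The strands were covered very unequally. Reads per forward CpG cytosine ranged from 6128 to 12624 over the 18 libraries. On the reverse strand they ranged from 26 to 77 in DP BS, 51 to 427 in DP oxBS, 59 to 193 in CD4 SP BS, 81 to 313 in CD4 SP oxBS, 212 to 505 in naïve CD4 BS and 215 to 529 in naïve CD4 oxBS. Reverse depth thus rose with the stages in BS while forward depth did not, and its part in the reverse values was not tested. A count of 0 would allow a share of up to 11.5% at 26 reads and 0.0490% at 6128 reads. Such limits and the 95% Wilson intervals below cover counting error only. The lambda control DNAs set the conversion rates. Their unconverted share was 0.0392 to 0.0683% for unmodified cytosine and 99.3 to 99.5% for 5mC over the libraries. For the 5hmC control it was 5.51 to 6.92% in BS and 0.647 to 1.498% in oxBS. The paper reports that the nucleotide mix of this last control was impure, so that it carried far less of the mark than planned. Its low BS share is therefore no measure of how BS reads 5hmC. It is also a weak control of the oxidation step, whose efficiency was fixed at 0.9 in the model below.

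**Figure D1:**
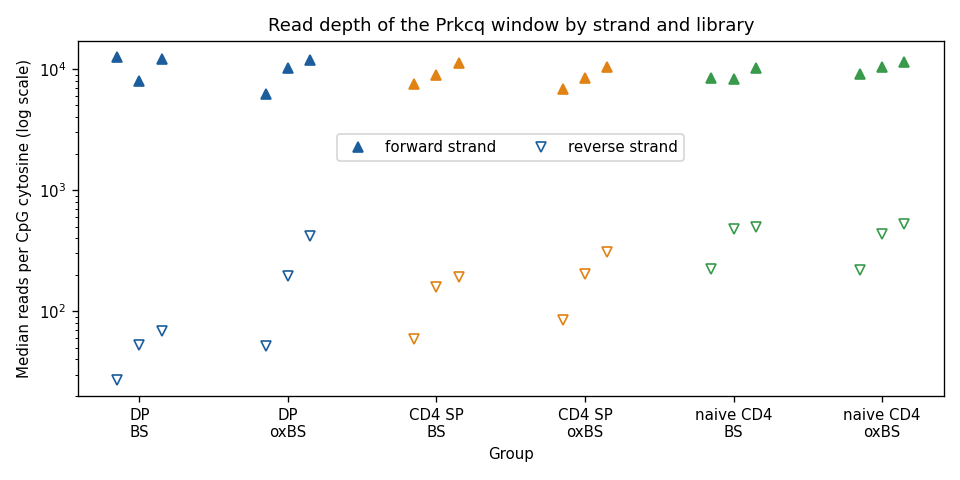
Median reads per CpG cytosine of the Prkcq window (vertical axis, log scale) in each library of the 6 groups (horizontal axis). Filled triangles are the forward strand, from 6214 upward, and open triangles the reverse strand, from 27 in DP BS to 526 in naïve CD4 oxBS.

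On the forward strand the chi-square per cytosine between 2 libraries of a group ranged from 0.317 to 14.6 with a median of 2.39. On the reverse strand, at far lower depth, it was 0.452 to 2.71 with a median of 1.09. A value of 1 is sampling noise, so the median forward pair differed by more than that. The forward pair with 14.6, naïve CD4 BS libraries 1 and 2, differed by 2.33 points on average. Over all 64 cytosines the shares of DP BS libraries 2 and 3 (chi-square p = 0.139) and of CD4 SP oxBS libraries 2 and 3 (chi-square p = 0.860) agree within sampling noise. They were counted as numbered, and with each pair counted as 1 sample the tests of the means over Prkcq and of the strands stayed below 0.05, while 3 calls of single cytosines were lost (below). All 3 libraries of a group can share features that other groups lack (the non-CpG cytosines in the closing section), so the p-values measure the spread between libraries, which may be in part technical.

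Over the 17 cytosines BS libraries had mean shares of 86.6, 89.1 and 87.4% in DP, 68.9, 63.4 and 65.1% in CD4 SP and 34.7, 32.0 and 33.1% in naïve CD4. For oxBS libraries they were 65.2, 61.2 and 63.2% in DP, 54.9, 54.4 and 54.6% in CD4 SP and 40.1, 41.0 and 40.0% in naïve CD4. The 3 stages did not overlap in either assay, and both shares fell at each step. From DP to naïve CD4 the BS share fell by 54.4 points and the oxBS share by 22.9 points (exact permutation test over the 3 stages, two-sided, adjusted p = 0.00714 for each over 12 tests, the smallest unadjusted p being 0.00357). BS minus oxBS was 21.3, 27.9 and 24.2 points in the DP pairs, 14.02, 8.98 and 10.5 in CD4 SP and -5.37, -9.06 and -6.85 in naïve CD4 (exact permutation, adjusted p = 0.00714). These pairs join BS and oxBS libraries by their replicate number, which the labels do not say links them. With stages permuted separately in BS and oxBS libraries, the adjusted permutation p was 0.434. That reshuffling carries the stage differences of each assay into its reference, so it cannot decide whether the joining by number matters. The mean change from DP to naïve CD4, -31.6 points, is the same whichever numbers are joined. Because the naïve CD4 values are negative, which a 5hmC level cannot be, that change is not a change in 5hmC. A comparison of 2 stages alone, 3 libraries against 3, cannot give an exact p below 0.10, so the tests are over all 3 stages.

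All 17 cytosines differed between stages in the BS share, with adjusted exact permutation p = 0.00567 over 192 tests for each, and all 17 were lower in naïve CD4 than in DP. This is read against a background of 89.1% of the 64 CpG cytosines lower and 1.56% higher. In the oxBS share 17 of 17 were lower as well (adjusted exact permutation p from 0.00567 to 0.0223, background 87.5% lower and 4.69% higher), and so they were in BS minus oxBS (adjusted exact permutation p from 0.00567 to 0.0332, background 65.6% lower and 25.0% higher). A fall in both shares was thus common among the measured CpGs, and these counts do not set Prkcq apart. With the pairs of close libraries counted as 1, the oxBS share differed at 16 and BS minus oxBS at 15 of the 17.

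The steps were not equally sharp. In the BS share all 3 CD4 SP libraries were below all 3 DP libraries at 16 of 17 cytosines (background 75.0%), the exception being forward CpG 4, and all naïve CD4 libraries were below all CD4 SP libraries at 17 (background 89.1%). In the oxBS share the counts were 13 for the first step (background 60.9%) and 15 for the second (background 89.1%). In BS minus oxBS they were 12 (background 54.7%) and 16 (background 50.0%).

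**Figure D2:**
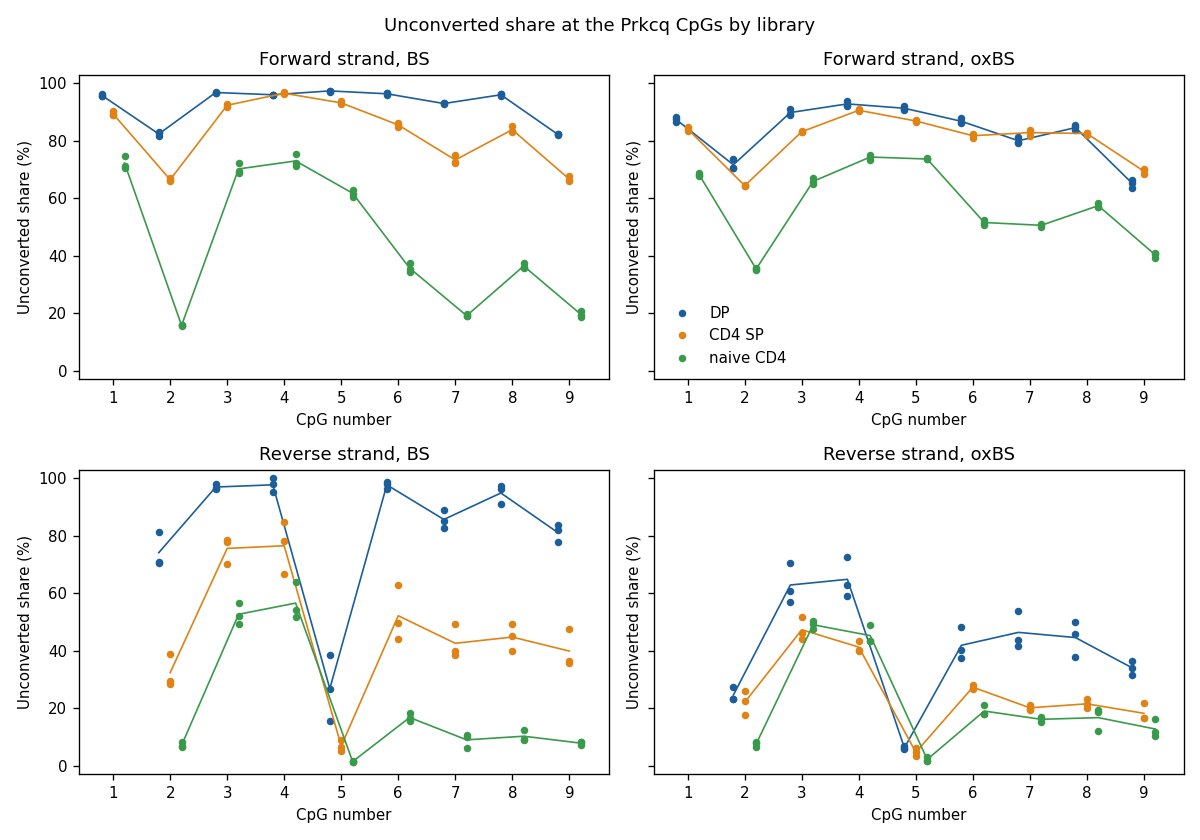
Unconverted share in percent (vertical axis) at CpGs 1 to 9 (horizontal axis) for each library (points) and stage mean (lines), by strand and assay. Naïve CD4 is lowest along the forward strand, reverse CpG 5 stands far below its neighbours at every stage, and reverse CpG 1 was not covered.

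On the forward strand the DP BS share was nearly complete. Its mean was 92.9% ± 0.192 (SD, n = 3), and it ranged over the CpGs from 82.2% at CpG 9 to 97.4% at CpG 5. In CD4 SP it was 83.1% ± 0.804 and ranged from 66.5 to 96.6%. In naïve CD4 it was 44.9% ± 1.23 and ranged from 15.8% at CpG 2 to 73.0% at CpG 4. Grouped after their values were seen, the naïve CD4 shares fell into a higher set, CpGs 1, 3, 4 and 5 at 72.3, 70.2, 73.0 and 61.8%, and a lower set, CpGs 2, 6, 7, 8 and 9 at 15.8, 35.7, 19.2, 36.5 and 19.7%. CpG 8 was in the lower set although its 6 letters are those of CpGs 3, 4 and 5.

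The forward oxBS share changed little in the thymus and then fell. It was 82.7, 82.8 and 84.4% in the DP libraries, 80.2, 81.0 and 80.8% in CD4 SP and 58.2, 57.5 and 57.0% in naïve CD4. The step from DP to CD4 SP ranged over the 9 CpGs from -7.26 points at CpG 2 to 4.31 points at CpG 9, and the step from CD4 SP to naïve CD4 from -32.2 points at CpG 7 to -13.2 points at CpG 5. The second step was the larger at all 9 forward CpGs, in oxBS and in BS alike. The order of the naïve CD4 oxBS shares along the strand was 68.3, 35.4, 65.9, 74.4, 73.7, 51.6, 50.6, 57.5 and 40.3% for CpGs 1 to 9. CpGs 4 and 5, and CpGs 6 and 7, were within 1 point of each other, which is of the size of the library spread (SD 0.197 to 0.916).

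CpG 2 (11124498) had the largest forward fall in the oxBS share. That share oxBS share was 70.6, 70.6 and 73.9% in DP, 64.3, 64.4 and 64.6% in CD4 SP and 35.4, 35.7 and 35.2% in naïve CD4, with at least 6208 reads in each library. The stages did not overlap, and the fall was 36.3 points (adjusted exact permutation p = 0.00567). Its BS share went from 81.6, 83.1 and 82.6% in DP to 16.1, 15.8 and 15.5% in naïve CD4, which is under the oxBS share of the same cells.

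CpG 5 (11124529) had the smallest forward fall in the oxBS share. That share was 91.2, 90.7 and 92.2% in DP, 86.6, 87.1 and 87.0% in CD4 SP and 73.9, 73.6 and 73.6% in naïve CD4, again without overlap, and fell by 17.7 points (adjusted exact permutation p = 0.00567). Its BS share was 97.2, 97.5 and 97.5% in DP and 63.1, 60.7 and 61.7% in naïve CD4. The BS share fell by 35.6 points there, and so by more than at CpG 1 (-23.6 points), CpG 3 (-26.6 points) and CpG 4 (-23.0 points).

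CpGs 7 and 9 were the forward CpGs at which the oxBS share was higher in CD4 SP than in DP. At CpG 7 (11124546) it was 79.4, 79.6 and 81.2% in DP, 81.8, 83.6 and 83.2% in CD4 SP and 51.1, 50.7 and 50.1% in naïve CD4. At CpG 9 (11124559) it was 63.7, 65.2 and 66.6% in DP, 68.5, 69.8 and 70.1% in CD4 SP and 40.9, 40.8 and 39.4% in naïve CD4. At both, every CD4 SP library was above every DP library, while the BS share had already dropped by 19.6 points at CpG 7 and by 15.6 points at CpG 9.

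On the reverse strand, where depth was low, the largest step came earlier in BS. The mean over the 8 cytosines was 79.7, 84.7 and 81.2% in the DP BS libraries, 51.9, 41.5 and 45.5% in CD4 SP and 21.7, 18.5 and 20.4% in naïve CD4. In oxBS it was 45.6, 36.9 and 39.4% in DP, 26.3, 24.4 and 25.1% in CD4 SP and 19.7, 22.6 and 20.9% in naïve CD4. The first step was the larger at 7 of 8 cytosines in BS and at 6 of 8 in oxBS, where CpGs 3 and 4 did not fall further (49.0 and 45.2% in naïve CD4 against 47.3 and 41.2% in CD4 SP).

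Reverse CpG 7 (11124547) had the largest reverse fall in the oxBS share. That share was 53.8, 43.6 and 41.7% in DP at 52, 202 and 427 reads, 21.2, 19.3 and 19.9% in CD4 SP and 15.2, 17.04 and 16.1% in naïve CD4. The stages did not overlap, and the fall was 30.2 points (adjusted exact permutation p = 0.00567). The 95% Wilson intervals of the first DP library, 40.5 to 66.7%, and of the first CD4 SP library, 13.8 to 31.0%, did not overlap.

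Reverse CpG 5 (11124530) stood apart from all its neighbours. Its BS share was 15.4, 38.5 and 26.6% in DP, 5.08, 6.45 and 8.95% in CD4 SP and 1.36, 1.48 and 1.40% in naïve CD4. The DP values rest on 26, 52 and 64 reads, with Wilson intervals of 6.15 to 33.5%, 26.5 to 52.0% and 17.3 to 38.5%. The other 7 reverse cytosines had DP BS means of 74.1 to 97.7%, and the forward cytosine of the same CpG had 97.4% ± 0.179 (SD, n = 3). Its oxBS share was 5.77, 6.15 and 6.71% in DP, 4.71, 5.97 and 3.27% in CD4 SP and 3.17, 1.61 and 1.71% in naïve CD4, the smallest fall of the reverse strand at 4.05 points (adjusted exact permutation p = 0.0143).

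The strands differed in the same libraries. Over CpGs 2 to 9, each covered on both strands, the forward minus the reverse BS share was 12.6, 8.04 and 11.5 points in DP, 31.3, 40.5 and 36.1 in CD4 SP and 21.1, 22.1 and 20.7 in naïve CD4. For oxBS it was 36.4, 45.4 and 44.6 points in DP, 53.4, 56.1 and 55.3 in CD4 SP and 37.1, 33.6 and 34.7 in naïve CD4. The forward strand was higher in 9 of 9 libraries of each assay (exact sign-flip test, p = 0.00391, the smallest possible), and the gap was widest in CD4 SP. The gap differed between stages in BS, in oxBS and in BS minus oxBS (exact permutation, adjusted p = 0.00714 for each over 3 tests). When the replicate number was a block, the adjusted exact permutation p for oxBS was 0.0556, and the change from DP to naïve CD4, -7.03 points, was -10.9 points without replicate 1 and -4.63 points without replicate 2.

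**Figure D3:**
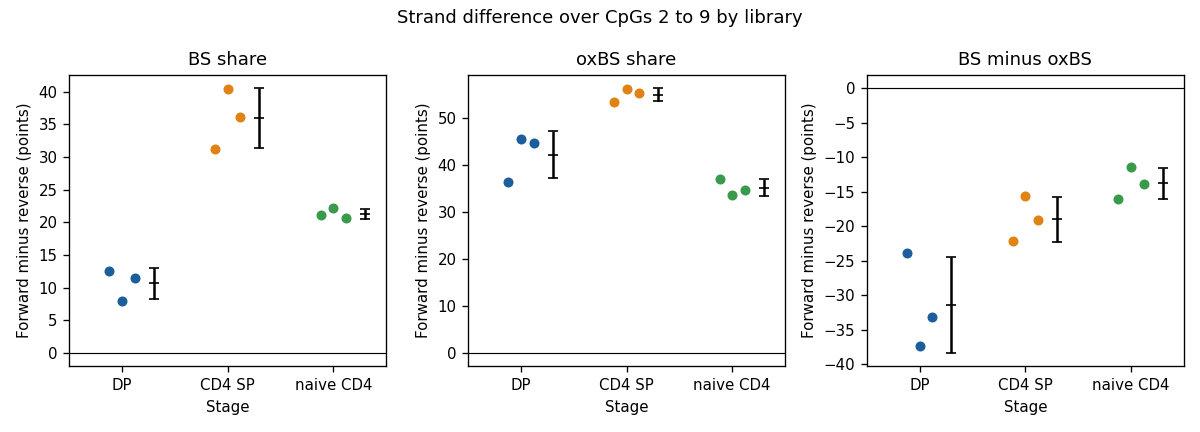
Forward minus reverse share in points (vertical axis) averaged over CpGs 2 to 9 in each library (points) of the 3 stages (horizontal axis), with the stage mean and SD as bars. BS and oxBS lie above 0 in every library with CD4 SP highest, and BS minus oxBS lies below 0 in every pair.

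In DP the BS shares of the strands were close except at CpG 5. The forward minus reverse difference ranged from -1.65 to 8.31 points at the other 7 CpGs and was 70.6 points at CpG 5. In oxBS it was 27.0 to 47.2 points at those 7 and 85.1 points at CpG 5. At the 19 CpGs of other loci covered on both strands the DP difference ranged from -5.12 to 6.57 points in BS, with a median of -0.624, and from -18.1 to 8.35 points in oxBS, with a median of -1.22, whereas the Prkcq medians were 1.18 and 36.9 points. In oxBS all 8 Prkcq CpGs were thus outside the range of the other loci. This is a description, since the depth of the reverse strand differs from that of the other loci as well.

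BS minus oxBS was positive in DP on both strands and larger on the reverse. All 3 BS libraries were above all 3 oxBS libraries at 17 of 17 cytosines in DP (background 81.2%) and below at 0 (background 4.69%). On the forward strand the difference in DP ranged over the CpGs from 3.17 to 17.1 points, and on the reverse strand from 20.6 to 55.8 points. In CD4 SP the BS libraries were above at 14 cytosines (background 56.2%) and below at 2, forward CpGs 7 and 9 (background 28.1%). In naïve CD4 they were above at 3 (background 28.1%) and below at 9 (background 35.9%), 6 of them on the forward strand.

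CpG 6 had the highest difference in DP, on the reverse strand (11124535). Its BS share there was 96.3, 98.1 and 98.6% at 27, 54 and 74 reads, and its oxBS share 48.1, 37.4 and 40.2% at 52, 198 and 423 reads, so that no library of one assay reached the other. The DP difference of 55.8 ± 6.68 points (SD, n = 3 pairs) compares with 24.9 ± 10.04 in CD4 SP and -2.24 ± 3.12 in naïve CD4 (adjusted exact permutation p = 0.00567). The forward cytosine of this CpG had 9.57 ± 0.738 points in DP.

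CpG 9 had the highest difference of the forward strand in DP, 17.1 ± 1.20 points, from BS shares of 82.0, 82.3 and 82.5% and the oxBS shares above. It was -2.78 ± 1.90 points in CD4 SP and -20.6 ± 1.11 in naïve CD4 (adjusted exact permutation p = 0.00567). CpGs 3 and 4 went another way on the forward strand, with 6.97 ± 1.18 and 3.17 ± 0.851 points in DP and 9.19 ± 0.694 and 5.94 ± 0.393 in CD4 SP.

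The naïve CD4 forward differences were negative at 7 of 9 CpGs, down to -31.4 ± 0.246 points at CpG 7, where BS gave 19.6, 19.0 and 18.9% and oxBS 51.1, 50.7 and 50.1%. The total of both marks cannot be below 5mC, so a negative difference is no 5hmC level. At CpGs 2 and 5 to 9 every BS library was below every oxBS library, and the mean differences of -11.9 to -31.4 points were larger than their SDs of 0.191 to 1.11 points. At CpG 4 the difference was -1.35 ± 1.65 points, which is within the spread. BS and oxBS portions were amplified separately, and the part of this or any other step in the negative values was not tested. On the reverse strand the mean difference in naïve CD4 was 1.93, -4.05 and -0.516 points in the 3 pairs, on both sides of 0.

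**Figure D4:**
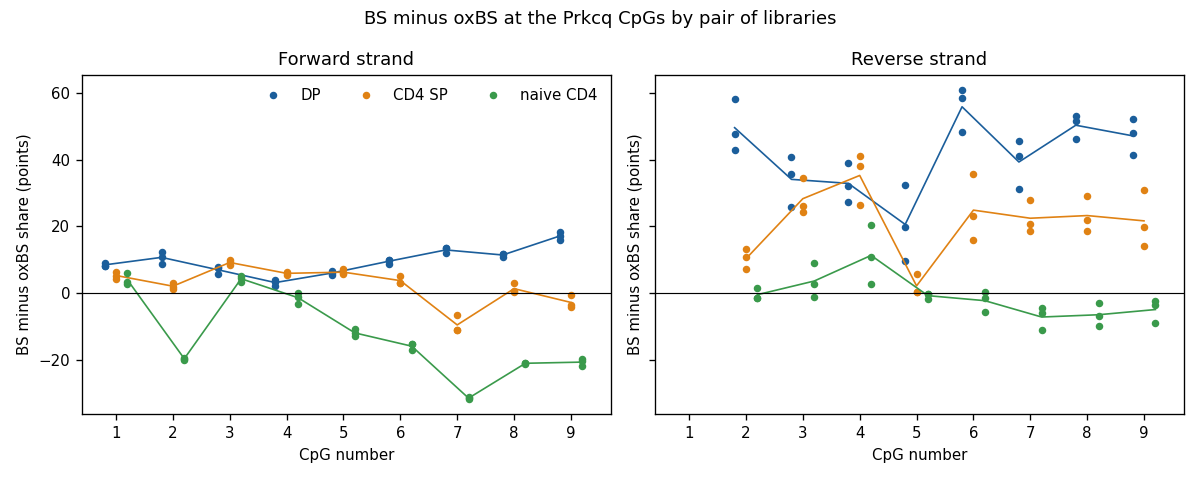
BS minus oxBS share in points (vertical axis) at CpGs 1 to 9 (horizontal axis) for each pair of libraries (points) and stage mean (lines), by strand. DP is above 0 at every cytosine and highest on the reverse strand, and naïve CD4 is far below 0 at forward CpGs 2 and 5 to 9.

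The hierarchical model of the study was also evaluated. It gives proportions of C, 5mC and 5hmC that are never negative, and a Bayes factor above 1 calls a cytosine different between 2 stages. Its C stands for unmodified cytosine together with any 5-formylcytosine and 5-carboxylcytosine. Averaged over the 8 reverse cytosines the posterior mean of 5hmC over DP, CD4 SP and naïve CD4 was 45.8, 21.6 and 2.75%, and that of C was 17.96, 55.8 and 78.5%. Over the 9 forward cytosines 5hmC was 8.51, 3.41 and 1.27%, C was 5.56, 13.8 and 47.2%, and 5mC was 85.9, 82.8 and 51.5%. On the reverse strand 5mC was 36.2, 22.6 and 18.7%. Where BS lay below oxBS the model could match neither share. At forward CpG 7 in naïve CD4 the mean shares were 19.2% in BS and 50.6% in oxBS. The posterior mean of 5mC there was 34.6% with a posterior SD of 9.80 points. A separate limit came from the numerical integration used here, whose grid of C values stopped short of complete conversion. At reverse CpG 5 in naïve CD4 the mean BS share was 1.41%, while the posterior mean of C was 92.6%, close to the top of that grid. The highest reverse values of C, and with them the naïve CD4 mean of 78.5%, may therefore be too low.

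Between DP and CD4 SP 6 of 17 cytosines were called, all on the reverse strand (background 25.0%), with Bayes factors from 1.05 at CpG 4 to 46.8 at CpG 8. The forward Bayes factors of this step were all at or below 0.731. Between CD4 SP and naïve CD4 7 were called (background 21.9%), 4 forward and 3 reverse, from 1.25 to 4.76. Between DP and naïve CD4 12 were called (background 39.1%), 5 forward and 7 reverse. The forward ones were CpGs 2, 6, 7, 8 and 9, the lower set of the naïve CD4 BS shares in the same libraries, with 34.8 to 135.4. The reverse cytosine of CpG 5 was not called at any step. Its posterior means of C in CD4 SP and naïve CD4, 91.9 and 92.6%, lay near the top of the grid. The model as integrated here could therefore hardly tell those stages apart at this cytosine. Without any 1 replicate the second step had 2 or 3 calls, and 12 remained the count between DP and naïve CD4.

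**Figure D5:**
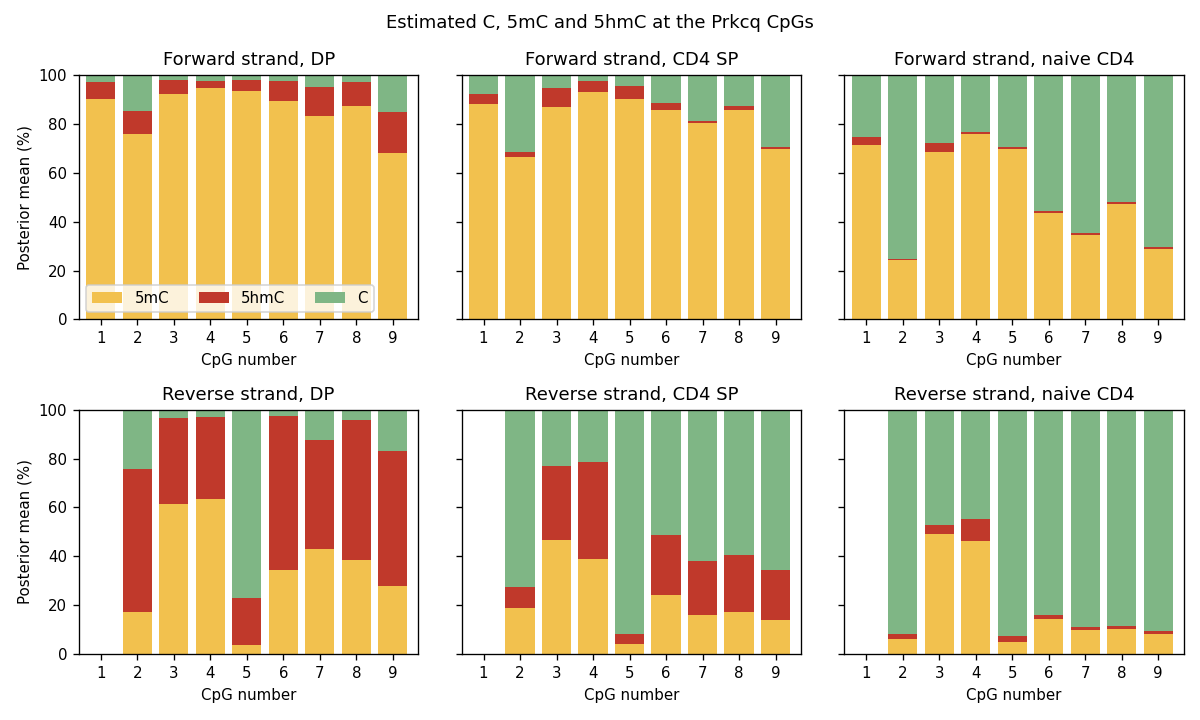
Posterior mean percent (vertical axis) of 5mC (yellow), 5hmC (red) and C (green) at CpGs 1 to 9 (horizontal axis) by strand and stage. The red part is largest on the reverse strand in DP, where CpG 6 has 62.9%, and the green part is largest on the reverse strand in naïve CD4.

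The change of Prkcq from DP to naïve CD4 lay between those of Il6ra, in an intron of the gene for the interleukin-6 receptor alpha chain, and Zbtb7b, which encodes a transcription factor of the CD4 lineage, measured within the same libraries. The Prkcq mean minus the Il6ra mean of 12 cytosines moved from DP to naïve CD4 by 27.6 points in BS (exact permutation, adjusted p = 0.0161 over 6 tests) and by 24.2 points in oxBS (exact permutation, adjusted p = 0.0171), as Il6ra fell further. Blocked by replicate number, both had an adjusted exact permutation p of 0.0556, and over forward cytosines alone the oxBS value was 14.6 points. Their BS minus oxBS differed in course mostly in CD4 SP, where the gap was 27.2, 25.3 and 26.7 points, against -0.595, 5.67 and 6.65 in DP and 0.246, 9.60 and 12.04 in naïve CD4 (exact permutation, adjusted p = 0.0179). The change in that gap from DP to naïve CD4 was 3.39 points, 10.6 points at cytosines with at least 100 reads and 15.7 points over forward cytosines alone. In CD4 SP the mean BS minus oxBS was 11.2 points in Prkcq and -15.2 points in Il6ra. In naïve CD4 both means were negative, -7.09 points in Prkcq and -14.4 points in Il6ra. A negative difference is no 5hmC level, so the gaps in CD4 SP and naïve CD4 are not differences in 5hmC. The same holds in naïve CD4 for BS minus oxBS of Prkcq against Zbtb7b, given next. The Prkcq mean minus the Zbtb7b mean of 28 cytosines moved by -41.8 points in BS, -13.4 in oxBS and -28.4 in BS minus oxBS (exact permutation, adjusted p = 0.00714 for each), as Prkcq fell further.

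The 3 cytosines outside Prkcq whose 6 group means were most like the forward Prkcq mean were a reverse cytosine of Il6ra at chr3 89679072 (Euclidean distance 7.31 points), and reverse cytosines of Zbtb7b at 89184954 (17.4 points) and 89184777 (25.6 points). The first had BS and oxBS shares of 89.8 and 87.3% in DP, 86.7 and 80.8% in CD4 SP and 43.7 and 53.9% in naïve CD4, and so had a BS share below its oxBS share in naïve CD4 as well. Single forward Prkcq CpGs lay 9.34 points (CpG 8) to 46.0 points (CpG 2) from their own mean, and reverse ones 41.7 to 163.9 points.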

How the data were processed

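Per the labels and the study's methods, the authors aligned read pairs with Bismark 0.7.12 and Bowtie2 to mm9 together with lambda DNA and extracted every cytosine context, counting the overlap of a pair once and keeping positions with at least 10 reads. The deposited files give unconverted and converted read counts per cytosine and the percent calculated from them, which the authors did not normalize and which was recomputed here. PCR duplicates carry no molecular identifier. Forward and reverse cytosines are read from different DNA strands. Positions were made 1-based and compared with NCBIM37 (GENCODE M1 annotation).

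Each cytosine had equal weight in a mean, and BS and oxBS libraries of the same number were paired because the DNA was divided, although the labels do not state that the number links them. Stages were compared by exact permutation of the F statistic (1680 arrangements, two-sided) with Benjamini-Hochberg adjustment over 12 locus tests, 192 cytosine tests over all 64 CpG cytosines, 3 strand tests or 6 locus tests, at a threshold of 0.05. The model (Dirichlet prior 0.8, oxidation efficiency fixed at 0.9, conversion from the lambda controls) was integrated numerically. Both procedures were tested on simulated data. CpGs given by library were, on each strand, those with the largest and the smallest oxBS fall from DP to naïve CD4, that with the highest DP difference, and that with the largest strand difference in DP oxBS. Members, lists and tests were chosen with earlier results of these data known. Python 3.11.15, numpy 2.4.6, scipy 1.17.1, pandas 2.3.3, statsmodels 0.14.6 and samtools 1.23.1 were used. Alternatives were another weighting, coverage minimums of 100 and 1000, one strand, correction with the controls, a replicate block, close libraries counted as 1 (for cytosine and strand tests chosen after seeing the data), a quasi-binomial model, other model settings and leaving out each replicate.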

Additional observations from a re-analysis of the deposited data

Results flagged for a closer look

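Unconverted reads were also found at cytosines outside CpGs, which no comparison above uses. The window holds 82 such positions covered in all libraries, with a mean unconverted share by library of 0.174 to 0.299% on the forward strand and 0 to 0.422% on the reverse strand. At 8 of them all 3 libraries of at least 1 group were above 0.683%, which is 10 times the highest unmodified lambda control. The highest was 11124508, with 4.89, 4.91 and 4.88% in naïve CD4 BS (mean 4.89%), 2.17, 2.39 and 2.12% in DP BS, 2.40, 2.26 and 2.43% in CD4 SP BS, 2.74, 2.41 and 2.60% in naïve CD4 oxBS, 1.16, 1.27 and 1.12% in DP oxBS and 0.247, 0.131 and 0.278% in CD4 SP oxBS. DP BS, CD4 SP BS and naïve CD4 oxBS lay next to each other with overlaps, and the other 3 groups were apart. At 11124496 the highest group mean was 1.46%, in naïve CD4 oxBS. In CD4 SP oxBS it was 0.859% at 11124447, 0.869% at 11124460, 1.06% at 11124540 and 1.80% at 11124548 (reverse strand, at least 85 reads). In DP oxBS it was 1.06% at 11124550 and 0.969% at 11124556. The cause was not tested.

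Forward minus reverse changed from DP to naïve CD4 by 10.6 points in BS, -7.03 points in oxBS and 17.7 points in BS minus oxBS. These gaps were tested over the 3 stages as above, not between DP and naïve CD4 alone. In oxBS the DP and naïve CD4 gaps overlapped. The reverse strand has far fewer reads, and its part was not tested. Prkcq minus Il6ra changed from DP to naïve CD4 by 27.6 points in BS, 24.2 points in oxBS and 3.39 points in BS minus oxBS. In BS minus oxBS its DP and naïve CD4 values overlapped, and the test was over the 3 stages. Prkcq minus Zbtb7b changed by -41.8, -13.4 and -28.4 points.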

How the results depend on the processing

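The 3 mean changes of Prkcq from DP to naïve CD4 kept their sign under every alternative. Without each replicate in turn they ranged from -55.7 to -53.1 points in BS, -24.2 to -21.7 in oxBS and -34.0 to -28.9 in BS minus oxBS, and the strand differences from 8.88 to 11.7, -10.9 to -4.63 and 13.5 to 22.6 points. Prkcq minus Il6ra ranged from 25.2 to 31.1 in BS, 22.8 to 26.5 in oxBS and 2.39 to 4.66 in BS minus oxBS, and Prkcq minus Zbtb7b from -42.6 to -40.8, -14.5 to -11.9 and -30.7 to -26.4. With 2 values per stage the exact p cannot go below 0.0667, so none of these passes 0.05 by construction, and the counts of cytosines called by permutation were not run without a replicate. At a coverage minimum of 100 only the forward cytosines are left, and 9 of 9 differed in each measure. Bayes factors above 3 left 2 calls between CD4 SP and naïve CD4, and that count was 2 to 3 without a replicate, the other model counts being 5 to 6 and 12. BS minus oxBS with no replicate block, that is with stages permuted separately in BS and oxBS libraries, had the same -31.6 points and an adjusted permutation p of 0.434, because that reshuffling carries the stage differences of each assay into its reference.

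With the close libraries counted as 1, the change of BS minus oxBS was -30.8 points (adjusted exact permutation p = 0.0184) and its strand difference 15.75 points (adjusted exact permutation p = 0.00952).

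Correlations of the deviations of same-numbered libraries over all 64 cytosines ran from -0.220 to 0.397 within a stage, with 5 of 9 over 0.1, and from -0.385 to 0.316 between stages, with 12 of 18 over 0.1. Since not every one was over 0.1, the numbers were not taken to pair the stages. BS with oxBS within a stage misses that mark too, and was joined by number only because the DNA was divided. The SDs and p-values of BS minus oxBS rest on that joining. All 3 were over 0.1 for DP with naïve CD4 and CD4 SP with naïve CD4 in BS and for DP with CD4 SP in oxBS, and all 3 were negative for DP with naïve CD4 in oxBS. Of 3 possible numbers, a library correlated best with its own number in 8 of 18 comparisons of BS with oxBS and in 22 of 36 between stages. With the replicate block, 17, 15 and 14 of the 17 cytosines differed in BS, oxBS and BS minus oxBS, and the adjusted exact permutation p was 0.0556 for the oxBS strand difference of -7.03 points and for Prkcq minus Il6ra of 27.6 points in BS and 24.2 points in oxBS.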
